A study of Mus musculus with 13 samples.

Results

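The liver-like tumours are 3 of 8 liver tumours of mir-122 knockout mice, titled 265, 318 and 105, set here against all 5 control livers of the same series of 13 microarrays. They were chosen by measured values: the Pearson correlation of each tumour's expression levels with those of the control titled 125, over all 45101 probe sets. That correlation was 0.962 for tumour 265, 0.975 for tumour 318 and 0.964 for tumour 105. Just outside the threshold lay tumour 266, with 0.952, and the other 4 tumours had between 0.937 and 0.950. Every probe set took part in the choice, so the differences between these tumours and the controls are given as a description, without a test of their own. The choice also favours tumours with small differences, so a small difference is not evidence that a gene was unaltered.

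All mice had the B6/129 background strain. The knockout tumours were taken at 11 months (tumours 265, 318 and 157) and at 14 months (tumours 69, 105 and 266, and 2 without a number in their titles, called replicate 1 and replicate 2). The wild-type control livers were 2 samples of 11 months (125 and 349) and 3 of 14 months (163, 258 and 1 without a number, called replicate 3). Total RNA of frozen tissue was measured on single-colour Affymetrix arrays, and the levels are log2 values, so that a difference of 1 is 2-fold. The labels do not say how many knockout mice the tumours came from, so p-values measure the spread between these samples, and no tumour-free knockout liver is among the samples, so that lack of the microRNA and tumour tissue cannot be told apart.

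miR-122 is the most abundant microRNA of hepatocytes. It pairs with messenger RNAs and lowers their level or their translation, and without it those messages are relieved of that control. Mice that lack it are known to develop fatty liver, inflammation and fibrosis, and with age hepatocellular carcinoma, the cancer of hepatocytes. The question put to these data is which of the differences seen in such tumours are already there in those whose profile stays close to that of liver.

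Throughout, values of the 3 liver-like tumours are in the order 265, 318 and 105, those of the other 5 tumours in the order 157, 14-month replicate 1, 14-month replicate 2, 69 and 266, and those of the controls in the order 125, 349, 163, 258 and 14-month replicate 3. Array medians lay between 5.13 and 5.22, and the median of all values was 5.17; levels under it are not shown to be above background. Controls 125 and 14-month replicate 3 were nearly identical, with a correlation of 0.995 against at most 0.990 for any other pair of controls and 63 probe sets more than 2-fold apart against 485 to 1315, and control 125 is also the one the choice was made with. These 2 controls shared high immediate early genes, with list medians 1.78 and 1.73 relative to the control mean, against -1.29 to -1.08 in the other 3, and high cell cycle genes. No gene of the array stood for the mir-122 locus, so the knockout itself could not be checked.

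Hepatocyte markers, whose probe sets also took part in the choice, had a high mean level on all 13 arrays. That mean did little to set the 3 tumours apart, while some single markers did. Alb, serum albumin, had log2 levels of 14.75, 14.70 and 14.67 in the liver-like tumours, 14.47 to 14.78 in the other tumours and 14.63 to 14.66 in the controls, near the top of the array's scale. Hnf4a, the transcription factor that maintains hepatocyte identity, had 11.82, 12.07 and 11.89 in the liver-like tumours, 11.47 to 12.07 in the other tumours and 11.53 to 12.14 in the controls. The mean level of 9 hepatocyte markers was 13.25 to 13.58 in the liver-like tumours, 13.14 to 13.32 in the other tumours and 13.52 to 13.66 in the controls. Of these markers, Asgr1 had 11.57, 11.95 and 11.38 in the liver-like tumours, 9.93 to 10.57 in the other tumours and 11.89 to 12.03 in the controls. Apoa1 had 14.45, 14.45 and 14.28 in the liver-like tumours, 12.87 to 13.90 in the other tumours and 14.37 to 14.49 in the controls. Tat had 12.22, 12.54 and 12.16 in the liver-like tumours, 12.87 to 13.56 in the other tumours and 12.79 to 13.39 in the controls. On the first principal component over all probe sets, which held 49.5% of the variance, the liver-like tumours had scores of -2.7, -17.8 and 1.6. The other tumours had 67.8 to 92.2 and the controls -79.4 to -64.5. On this component the liver-like tumours thus lay between both groups and did not fall among the controls. On the second, which held 12.8%, they had 72.4, 25.2 and 72.2 and lay outside both groups. There the other tumours had -24.8 to -7.9 and the controls -21.0 to -14.5.

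**Figure D1:**
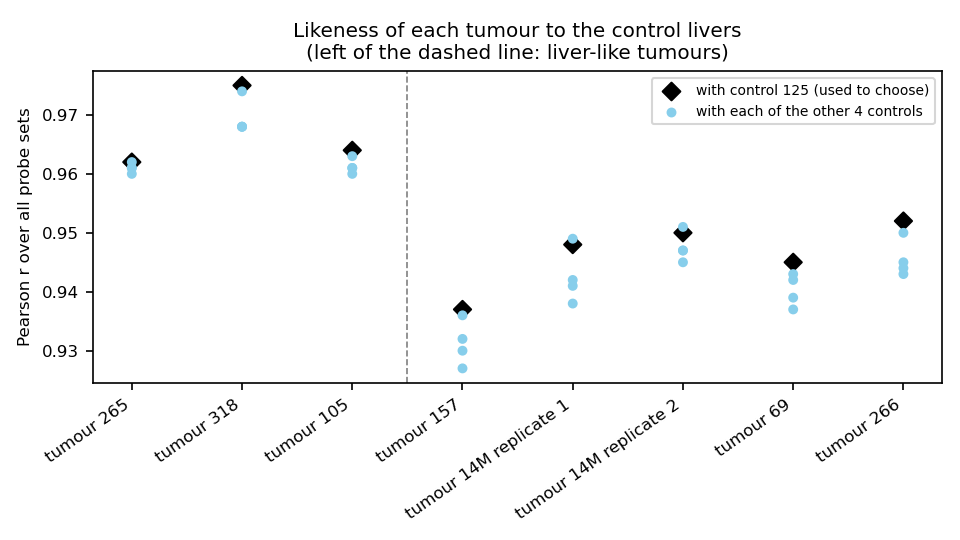
Pearson correlation (y axis) of each of the 8 tumours (x axis) with each of the 5 control livers over all probe sets; black diamonds are the correlations with control 125 that chose the tumours, blue points those with the other 4 controls. The 3 liver-like tumours, left of the dashed line, had 0.960 or more with every control, and the other 5 at most 0.952.

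Even the tumours closest to liver differed from it in many genes. Foetal and tumour genes such as Igf2 and Afp, and published miR-122 targets such as Aldoa, were high in all 3, while male-biased liver genes such as Hsd3b5 and Slco1a1 were nearly lost. Of 18193 genes, 1746 (9.60%) had all 3 liver-like tumours above all 5 controls and 2110 (11.6%) had all 3 below. With a mean difference of at least 2-fold as well, the counts were 631 above (3.47%) and 233 below (1.28%), so that large differences were mostly upwards. Without tumour 318 the second count was 427. In 3048 genes (16.8%) all 3 tumours lay inside the range of the controls.

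Each tumour alone gave more. Tumour 265 was at least 2-fold above the control mean and above all controls in 999 genes (5.49%), and below them likewise in 575 (3.16%). For tumour 318 the counts were 979 (5.38%) and 262 (1.44%), and for tumour 105 they were 1154 (6.34%) and 487 (2.68%). The other 5 tumours had 1407 to 1702 genes above and 758 to 998 below by the same measure. The liver-like tumours thus had fewer such genes than any other tumour, a measure close to the one that chose them, and tumour 318 had the fewest genes below.

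The only test of tumours against controls compares all 8 tumours, the 3 liver-like ones among them, with the 5 controls, as the labels group them. In limma's moderated test with Benjamini-Hochberg adjustment, 1872 genes rose in the tumours (10.3%) and 1785 fell (9.81%), together 20.1% of genes at an adjusted p under 0.05; without control 125 or control 349 the total of 3657 went down to 1963 and 1814. Adjusted p-values given for single genes below are from this test of all 8 tumours, and they share the controls with the values of the liver-like tumours. No gene passed limma's test of a difference of the tumour effect between 11 and 14 months (0%), with 544 genes at an unadjusted p under 0.05. With so few arrays per group this test cannot show that the ages are alike. The ages were described together.

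The largest differences upwards were those of Igf2, the foetal insulin-like growth factor. It had levels of 11.63, 12.79 and 12.79 in the liver-like tumours, 12.70, 11.72, 12.73, 13.41 and 13.21 in the other tumours and 6.37, 5.09, 6.70, 6.41 and 6.67 in the controls. Tumour 265 was just under the other tumours and tumours 318 and 105 were among them, and none overlapped the controls. Their mean difference from the controls was 6.16, and the adjusted p over all 8 tumours was 1.89e-06 (limma); with the mean of the gene's probe sets in place of the brightest one the difference was 4.39. Lcn2, the iron-scavenging secreted protein lipocalin 2, had 13.53, 12.97 and 12.91 in the liver-like tumours, 13.75, 12.68, 12.99, 12.18 and 13.19 in the other tumours and 9.73, 5.88, 7.22, 6.13 and 9.98 in the controls. The liver-like tumours again lay within the range of the other tumours, and the controls varied widely, with the nearly identical pair the highest (adjusted p 0.000812, limma).

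Afp, alpha-fetoprotein, the foetal counterpart of albumin and a marker of hepatocellular carcinoma, had 10.44, 8.22 and 11.58 in the liver-like tumours, 12.18, 12.26, 11.87, 11.41 and 12.18 in the other tumours and 6.11, 4.73, 5.48, 5.26 and 6.00 in the controls. Tumour 105 was as high as the other tumours, and tumour 318 lay about midway between them and the controls (difference 4.56, adjusted p 0.000148 in limma's test of all tumours). Ly6d, a surface protein of the Ly6 family, separated the 3 tumours even more. It had 12.77, 8.01 and 12.91 in the liver-like tumours, 11.13, 11.55, 10.88, 9.18 and 10.10 in the other tumours and 6.18, 5.57, 5.65, 5.73 and 6.08 in the controls, so that tumours 265 and 105 were above all others and tumour 318 below them. Anxa13, an annexin of epithelia, had 10.23, 7.87 and 12.05 in the liver-like tumours, 5.26, 7.60, 5.96, 7.76 and 6.06 in the other tumours and 4.45, 3.90, 4.39, 4.18 and 4.96 in the controls, and its adjusted p of 0.0396 held in only 4 of the 13 fits that left out 1 array.

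Ubd, a ubiquitin-like modifier induced by inflammation, was highest in tumour 318. Its levels were 9.09, 11.05 and 8.42 in the liver-like tumours, 8.07, 10.32, 8.16, 9.04 and 8.56 in the other tumours and 4.98, 4.22, 4.35, 4.30 and 5.16 in the controls. Mogat2, an acyltransferase of triglyceride synthesis, had 10.71, 8.80 and 10.58 in the liver-like tumours against 4.85 to 5.96 in the controls, and 7.07 to 9.28 in the other tumours. Tspan8, a tetraspanin found in carcinomas, had 9.73, 7.95 and 7.88 in the liver-like tumours against 3.24 to 5.10 in the controls; averaged over its probe sets the difference of 4.47 was 1.55. Among genes past the threshold of the test of all tumours, the remaining leading genes were Elapor1, Cidec, Fabp4, Prom1, Rragd, Mfge8 and Ddr1. Their mean differences were 3.68 to 4.42, and for Ddr1 and Rragd they were 1.04 and 1.62 with the mean of the probe sets.

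**Figure D2:**
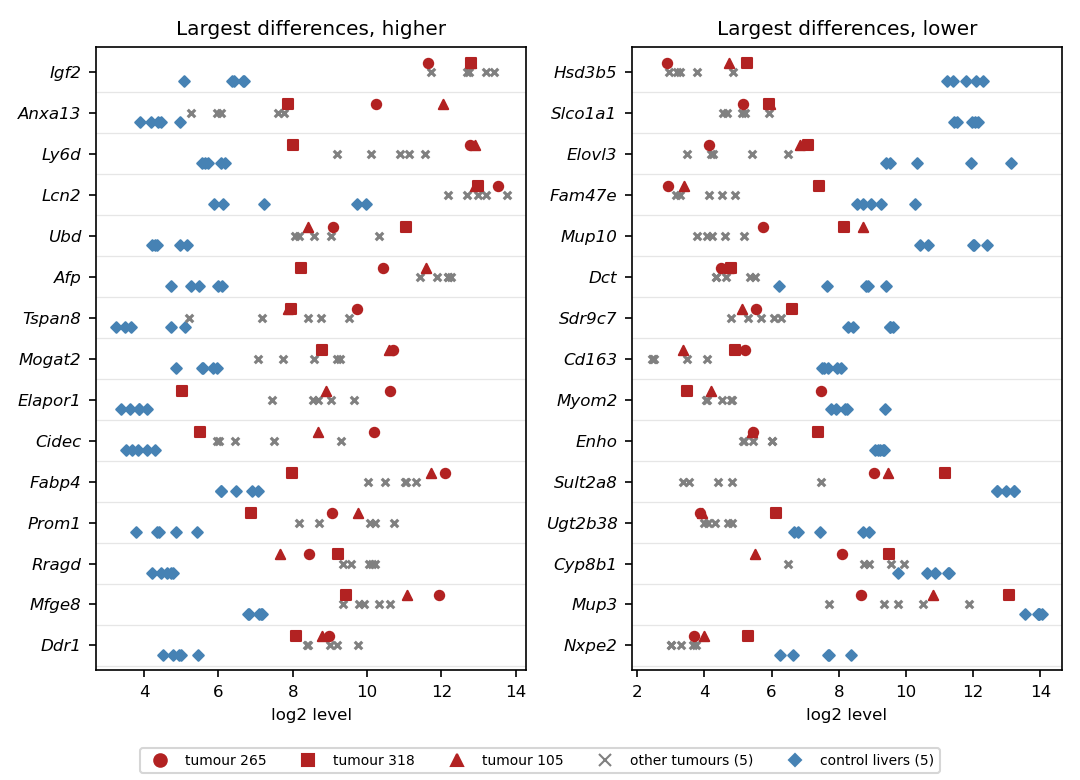
Log2 level (x axis) of the 15 genes with the largest differences in each direction (rows) among genes past the threshold in limma's test of all tumours. The left panel holds genes higher and the right panel genes lower in the liver-like tumours. Red symbols are tumours 265, 318 and 105, grey crosses the other 5 tumours and blue diamonds the 5 controls. Igf2 stands at 11.63 to 12.79 in the liver-like tumours and Hsd3b5 at 2.89 to 5.27, each apart from the controls, while Anxa13, Ly6d and Elapor1 spread widely among the 3 tumours.

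Foetal liver and tumour markers as a list followed their leading genes. Of 33 measured, 18 had all 3 liver-like tumours above all controls, 17 of them by 2-fold, and 0 had all below, against 9.60%, 3.47% and 11.6% of all genes. In the test of all tumours 21 rose and 0 fell, against 10.3% and 9.81% of all genes. The median difference was 1.22 in the liver-like tumours and 1.84 in the others, against -0.06 over all genes in the liver-like tumours. Some members were much less high than in the other tumours. Cd24a, a surface glycoprotein of immature cells, had 7.02, 8.26 and 9.37 in the liver-like tumours, 10.19 to 12.14 in the other tumours and 4.68 to 6.45 in the controls. Scd2, the stearoyl-CoA desaturase of foetal liver, had 9.78, 8.15 and 10.66 in the liver-like tumours, 11.41 to 12.18 in the other tumours and 5.70 to 6.45 in the controls. Sox4, a transcription factor of progenitor cells, had 9.83, 7.75 and 9.41 in the liver-like tumours, 10.05 to 11.39 in the other tumours and 4.74 to 5.70 in the controls.

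Not every foetal gene was high. Gpc3, the glypican used as a marker of human hepatocellular carcinoma, had 4.53, 4.38 and 5.03 in the liver-like tumours, 4.33 to 4.48 in the other tumours and 4.14 to 4.76 in the controls, all under the median of all values. Spink1, a secreted protease inhibitor, had 4.50, 4.27 and 4.30 in the liver-like tumours and lay inside the control range of 4.04 to 5.65, whereas the other tumours had 5.42 to 8.55. Krt19, a keratin of bile duct cells, had 4.55, 6.48 and 5.86 in the liver-like tumours, 4.48 to 5.33 in the other tumours and 4.54 to 5.80 in the controls, above the controls only in tumours 318 and 105. The hepatocyte keratins Krt8 and Krt18 were above all controls in all 3 liver-like tumours. Krt8 had 12.01, 13.02 and 12.66 in the liver-like tumours against 10.50 to 11.97 in the controls, and Krt18 had 12.26, 12.91 and 12.29 in the liver-like tumours against 10.43 to 11.74 in the controls.

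Published targets of miR-122 were higher in the liver-like tumours as a group and by similar amounts in each. Of 35 measured, 18 had all 3 tumours above all controls, 13 of them by 2-fold, and 1, Nfatc2ip, had all below, against 9.60%, 3.47% and 11.6% of all genes. The list's median difference was 0.62 in the liver-like tumours, 0.62, 0.55 and 0.69 in tumours 265, 318 and 105, and 0.76 in the other tumours, against -0.06 over all genes. Averaging each gene's probe sets gave a median of 0.45, and leaving out tumour 318 gave 0.47. In the test of all tumours 21 targets rose, none fell and 14 did not pass, against 10.3% of all genes that rose.

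Aldoa, the glycolytic aldolase of muscle and a classical target, had 12.04, 11.08 and 11.66 in the liver-like tumours, 12.88, 12.71, 12.55, 12.92 and 11.87 in the other tumours and 9.27, 8.97, 8.84, 9.22 and 9.57 in the controls. Tumour 265 reached the range of the other tumours and tumours 318 and 105 stood just under it, all far above the controls (difference 2.41, adjusted p 0.000216, limma). Fundc2, an outer mitochondrial membrane protein, had 8.19, 8.12 and 8.37 in the liver-like tumours, 8.78, 8.93, 8.86, 9.24 and 8.64 in the other tumours and 6.35, 6.40, 6.46, 6.73 and 6.62 in the controls, an ordering of all 3 groups without overlap (adjusted p 3.18e-05, limma). G6pc3, a ubiquitous glucose-6-phosphatase, was nearly constant among the liver-like tumours, with 7.77, 7.78 and 7.80, while the other tumours had 7.59 to 7.88 and the controls 6.73 to 7.15 (adjusted p 0.000305, limma).

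Slc35a4, a nucleotide sugar transporter family member, had 8.81, 9.01 and 9.25 in the liver-like tumours, 8.86 to 9.57 in the other tumours and 6.87 to 7.52 in the controls, with a difference of 1.78 that was 0.83 over the mean of its probe sets. Hjv, the hemojuvelin co-receptor of iron sensing, had 11.58, 10.50 and 10.56 in the liver-like tumours, 10.05 to 10.59 in the other tumours and 9.18 to 9.74 in the controls, highest of all in tumour 265. Pkm, the pyruvate kinase of proliferating cells, had 8.42, 8.09 and 8.47 in the liver-like tumours, 8.11 to 10.79 in the other tumours and 6.59 to 6.78 in the controls. Hamp, the iron hormone hepcidin that hemojuvelin controls, is no target and had 8.79, 13.48 and 9.91 in the liver-like tumours, 10.83 to 13.44 in the other tumours and 12.23 to 13.65 in the controls. It was thus low in tumours 265 and 105, which did not hold for tumour 318.

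Adam10, a sheddase of cell surface proteins, had 9.56, 9.70 and 9.98 in the liver-like tumours against 8.66 to 8.87 in the controls. Ccng1, a cyclin of the p53 response, had 9.69, 10.02 and 10.17 in the liver-like tumours against 8.26 to 9.03 in the controls. Iqgap1, a scaffold of the actin cytoskeleton, had 8.63, 9.19 and 9.45 in the liver-like tumours against 7.46 to 8.10 in the controls. Rell1, Ndrg3, P4ha1, Tmed3 and Bckdk were also above all controls in all 3 liver-like tumours by 2-fold, with mean differences of 1.16 to 1.87. Other published targets differed little. Cux1 had 7.78, 7.67 and 7.87 in the liver-like tumours against 7.48 to 7.88 in the controls, and Foxp1, Tbx19 and Ap3m2 likewise lay inside the control range in all 3. Slc7a1, the cationic amino acid transporter whose release from miR-122 is well studied in human liver cells, had 5.88, 7.45 and 6.02 in the liver-like tumours, 7.94, 8.36, 9.56, 7.34 and 7.93 in the other tumours and 5.92, 5.49, 5.88, 5.72 and 5.74 in the controls. Among the liver-like tumours it was clearly high only in tumour 318.

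**Figure D3:**
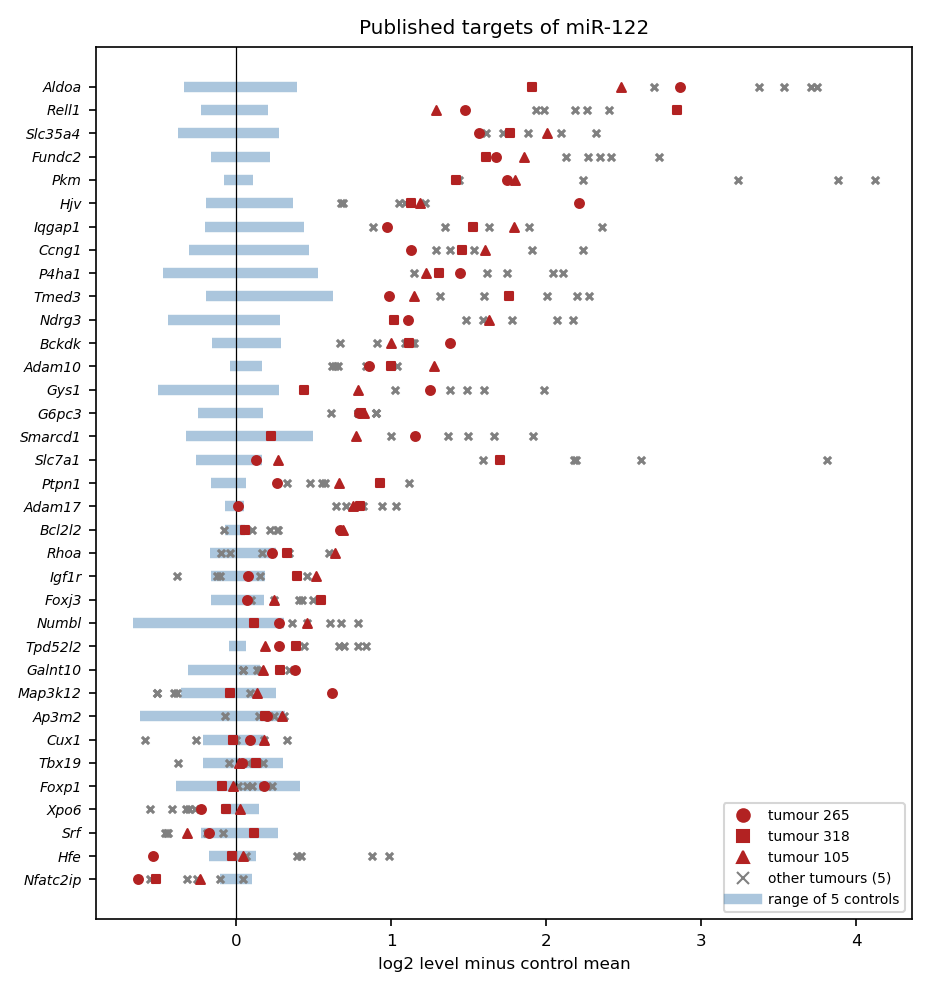
Log2 level minus the mean of the 5 controls (x axis) of the 35 measured published miR-122 targets (rows, ordered by the mean of the liver-like tumours); red symbols are tumours 265, 318 and 105, grey crosses the other 5 tumours and blue bars the range of the controls. The upper rows, from Aldoa to Bckdk, lie right of the controls in all 8 tumours, and the lowest row is Nfatc2ip.

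Genes that growth hormone makes higher in male than in female liver were the lowest list by its median. Of 21 measured, 16 had all 3 liver-like tumours below all controls, 15 of them by 2-fold, and 0 had all above. The shares of all genes were 11.6%, 1.28% and 9.60%. In the test of all tumours 15 male-biased genes fell and none rose, against 9.81% and 10.3% of all genes. The median difference was -2.25 in the liver-like tumours and -3.28 in the others. By tumour it was -3.00, -0.84 and -2.66, least in tumour 318. All 13 arrays had the male pattern of the Y-linked gene Eif2s3y and of Xist, with 8.60 to 9.06 for Eif2s3y in the liver-like tumours and 9.02 to 9.45 in the controls, and 4.46 to 4.74 for Xist in the liver-like tumours and 4.90 to 5.20 in the controls.

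Hsd3b5, a steroid-metabolising enzyme of male mouse liver, had 2.89, 5.27 and 4.72 in the liver-like tumours, 3.19, 2.94, 3.26, 3.79 and 4.85 in the other tumours and 11.40, 12.08, 12.29, 11.77 and 11.23 in the controls. It was high in every control and near or under the median of all values in every tumour (difference -7.46, adjusted p 6.4e-06, limma). Slco1a1, an organic anion transporter, had 5.16, 5.93 and 5.96 in the liver-like tumours, 5.13, 4.66, 5.22, 4.54 and 5.91 in the other tumours and 11.51, 12.13, 12.04, 11.95 and 11.43 in the controls, a loss as deep in the liver-like tumours as in the rest (adjusted p 1.11e-06, limma). Moxd1, a monooxygenase-like protein, had 3.29, 3.21 and 3.41 in the liver-like tumours, 3.02 to 3.42 in the other tumours and 5.50 to 8.19 in the controls.

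Other male-biased genes varied more among the tumours. Elovl3, a fatty acid elongase, had 4.13, 7.09 and 6.85 in the liver-like tumours, 3.47 to 6.50 in the other tumours and 9.39 to 13.11 in the controls. Sult2a8, a sulfotransferase, had 9.05, 11.15 and 9.45 in the liver-like tumours, 3.37, 4.40, 4.81, 3.53 and 7.46 in the other tumours and 12.71, 13.20, 13.22, 12.98 and 12.70 in the controls, so that the liver-like tumours were between both. Cyp4a12a, a fatty acid hydroxylase, had 9.74, 12.07 and 12.50 in the liver-like tumours, 5.02 to 9.09 in the other tumours and 12.36 to 12.82 in the controls; it stayed near the controls in tumours 318 and 105. Mup10, a major urinary protein of a family whose members are nearly identical and may share probes, had 5.73, 8.16 and 8.72 in the liver-like tumours, 3.78 to 5.17 in the other tumours and 10.41 to 12.40 in the controls. Mup3, of the same family, had 8.67, 13.05 and 10.81 in the liver-like tumours, 7.72 to 11.87 in the other tumours and 13.54 to 14.06 in the controls. Egfr, the epidermal growth factor receptor, had 8.27, 10.64 and 8.30 in the liver-like tumours, 8.87 to 10.29 in the other tumours and 11.54 to 12.24 in the controls.

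Female-biased genes were higher in part. Of 19 measured, 8 had all 3 liver-like tumours above all controls and 1 had all below, against 9.60% and 11.6% of all genes. By limma's test of all tumours 3 rose and 1 fell, against 10.3% and 9.81% of all genes. Cyp2b13, a cytochrome P450 with close relatives that may share its probes, had 7.74, 10.78 and 11.94 in the liver-like tumours, 5.44, 5.28, 6.67, 5.39 and 6.77 in the other tumours and 5.12, 5.88, 5.50, 5.64 and 5.32 in the controls. All 3 liver-like tumours lay above the other 10 arrays, and the test of all tumours did not pass (adjusted p 0.212, limma). Cyp2b9, its relative, had 7.60, 10.03 and 11.22 in the liver-like tumours against 3.55 to 7.51 in the controls. Sult2a2, a sulfotransferase, was high only in tumour 265, with 10.39, 3.59 and 3.97 in the liver-like tumours against 3.10 to 3.46 in the controls. Acot3, an acyl-CoA thioesterase, had 11.58, 7.47 and 10.25 in the liver-like tumours, 5.96 to 7.29 in the other tumours and 5.97 to 6.90 in the controls.

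STAT5 carries the growth hormone signal to male-biased genes in mouse liver. Its binding motif TTCNNNGAA was searched on both strands in the 250 bases upstream of the start. The motif was found in 3 of 17 male-biased genes with a RefSeq promoter (17.6%), against 8.13% of all 27025 genes with one. The holders were Moxd1, C8a and Slc22a26, of which Slc22a26 did not differ, with 4.75, 5.40 and 4.68 in the liver-like tumours against 4.73 to 5.20 in the controls. The sequences of Moxd1 and C8a are shown because both genes were below all controls in all 3 liver-like tumours; they are from RefSeq (GRCm38.p6), 5′ to 3′ on the gene's strand, at chr10:24223267-24223516 (plus strand) for Moxd1 and chr4:104876399-104876648 (minus strand) for C8a, with the motif in capitals. A match describes the letters and does not show that the site is used.
Moxd1: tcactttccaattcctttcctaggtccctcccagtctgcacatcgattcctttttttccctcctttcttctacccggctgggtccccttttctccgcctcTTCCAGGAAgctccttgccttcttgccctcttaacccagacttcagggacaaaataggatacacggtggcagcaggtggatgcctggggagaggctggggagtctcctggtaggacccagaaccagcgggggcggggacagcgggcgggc
C8a: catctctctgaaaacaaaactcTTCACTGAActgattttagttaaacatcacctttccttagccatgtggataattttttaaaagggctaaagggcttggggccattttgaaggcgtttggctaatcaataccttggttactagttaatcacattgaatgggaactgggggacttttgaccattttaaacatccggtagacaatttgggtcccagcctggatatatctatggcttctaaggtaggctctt

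Cholesterol synthesis genes separated tumour 318 from tumours 265 and 105. The median difference of 20 measured genes was -1.43, 0.27 and -1.62 in tumours 265, 318 and 105, and -1.88 in the other tumours. Because of tumour 318 only 4 had all 3 liver-like tumours below all controls, namely Mvk, Tm7sf2, Ebp and Dhcr7, while none had all above, against 11.6% and 9.60% of all genes. In the test of all tumours 12 fell and none rose, against 9.81% and 10.3% of all genes. At least 2-fold below all controls were 14 members in tumour 265, 0 in tumour 318 and 18 in tumour 105, against 3.16%, 1.44% and 2.68% of all genes.

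Idi1, the isopentenyl diphosphate isomerase, had 9.05, 12.40 and 9.17 in the liver-like tumours, 7.86, 7.86, 8.96, 7.94 and 10.16 in the other tumours and 12.27, 11.74, 11.87, 12.18 and 12.13 in the controls. Tumour 318 was just above the controls, and tumours 265 and 105 lay among the other tumours. Msmo1, the sterol C4-methyl oxidase, had 9.64, 12.41 and 9.25 in the liver-like tumours, 8.30 to 10.36 in the other tumours and 11.78 to 12.49 in the controls. Hmgcs1, which makes the precursor of mevalonate, had 10.42, 12.84 and 11.28 in the liver-like tumours, 9.21 to 10.47 in the other tumours and 12.33 to 12.79 in the controls. Sqle, squalene epoxidase, had 9.55, 11.29 and 8.82 in the liver-like tumours, 8.04 to 9.67 in the other tumours and 10.19 to 11.02 in the controls. In each of these genes tumour 318 stood at or above the level of the controls. Mvk, mevalonate kinase, was low in all 3, with 6.75, 8.02 and 6.96 in the liver-like tumours, 6.40 to 7.09 in the other tumours and 8.22 to 8.60 in the controls (adjusted p 0.00238, limma).

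SREBP2, the protein product of Srebf2, switches these genes on when sterols are scarce by binding the sterol regulatory element. The element's letters TCACNCCA were searched on both strands in the 250 bases upstream. They were found in 3 of 16 of these genes with a RefSeq promoter (18.8%), against 4.20% of all 27025 genes with one. The holders were Srebf2, Hmgcs1 and Msmo1; Srebf2 itself had 7.98, 8.19 and 7.49 in the liver-like tumours, 7.42 to 8.02 in the other tumours and 8.05 to 8.34 in the controls. The promoters of Hmgcs1 and Msmo1 are shown because these genes differed between tumour 318 and tumours 265 and 105; they are from RefSeq (GRCm38.p6), at chr13:119690101-119690350 (plus strand) and chr8:64733579-64733828 (minus strand), 5′ to 3′ on the gene's strand with the element in capitals. Whether the element was in use in any tumour was not tested.
Hmgcs1: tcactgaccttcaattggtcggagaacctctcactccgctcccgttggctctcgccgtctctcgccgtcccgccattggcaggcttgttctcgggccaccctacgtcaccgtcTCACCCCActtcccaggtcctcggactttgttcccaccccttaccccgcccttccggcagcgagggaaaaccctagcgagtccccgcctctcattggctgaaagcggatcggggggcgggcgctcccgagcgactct
Msmo1: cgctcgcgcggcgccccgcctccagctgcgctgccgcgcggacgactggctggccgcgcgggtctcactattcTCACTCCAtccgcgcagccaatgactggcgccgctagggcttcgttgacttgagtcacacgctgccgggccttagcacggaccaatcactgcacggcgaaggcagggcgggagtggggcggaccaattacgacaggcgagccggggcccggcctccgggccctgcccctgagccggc

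Lipid storage genes also set tumour 318 apart, near the controls, with tumours 265 and 105 high. The median difference of 24 lipid droplet and uptake genes was 1.14, -0.20 and 0.65 in tumours 265, 318 and 105; 5 of them had all 3 above all controls, 1 had all below, against 9.60% and 11.6% of all genes. Among all tumours, limma's test found that 6 rose and 3 fell, where 10.3% and 9.81% of all genes did. Cidec, a lipid droplet protein of fat cells and fatty liver, had 10.19, 5.51 and 8.68 in the liver-like tumours, 6.02, 9.29, 7.49, 5.97 and 6.46 in the other tumours and 3.85, 3.69, 3.53, 4.09 and 4.29 in the controls. Its adjusted p was 0.0117 (limma) and was 0.0516 without control 349. Fabp4, a fatty acid binding protein of fat cells and macrophages, had 12.10, 7.97 and 11.73 in the liver-like tumours, 10.02 to 11.31 in the other tumours and 6.07 to 7.07 in the controls (adjusted p 0.0014, limma). In both genes all 3 were above every control, tumours 265 and 105 by far more than tumour 318. Adipoq, the defining marker of fat cells, had levels of 3.13 to 3.34 in the liver-like tumours and 3.02 to 4.19 in the controls, under the median of all values.

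Cidea, a relative of Cidec, had 10.21, 4.54 and 9.88 in the liver-like tumours, 4.79 to 6.34 in the other tumours and 4.27 to 4.97 in the controls, so that only tumours 265 and 105 were high among all 13 arrays. Cd36, a fatty acid receptor, had 11.92, 9.18 and 12.20 in the liver-like tumours, 9.93 to 11.34 in the other tumours and 7.60 to 9.29 in the controls. Lpl, lipoprotein lipase, was high in all 3, with 11.81, 10.81 and 12.34 in the liver-like tumours, 11.82 to 12.42 in the other tumours and 8.18 to 9.72 in the controls (adjusted p 0.000188, limma). G0s2, an inhibitor of lipid breakdown, had 11.26, 5.49 and 9.85 in the liver-like tumours, 9.55 to 10.73 in the other tumours and 7.02 to 9.58 in the controls, and was lowest of all arrays in tumour 318.

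A few genes of fatty acid use, known as targets of the fatty acid sensor PPAR alpha and named after their values were seen, had the arrangement of Cidea. Cyp4a14, a fatty acid hydroxylase, had 12.01, 8.08 and 12.28 in the liver-like tumours, 4.40 to 9.10 in the other tumours and 6.86, 6.87, 7.41, 8.62 and 6.90 in the controls. Ehhadh, an enzyme of peroxisomal fatty acid oxidation, had 13.62, 10.64 and 13.21 in the liver-like tumours, 9.92 to 12.06 in the other tumours and 10.93 to 11.34 in the controls. Pdk4, the kinase that keeps pyruvate out of oxidation, had 10.40, 6.28 and 8.97 in the liver-like tumours, 5.06 to 7.24 in the other tumours and 5.02 to 7.85 in the controls. In all 3 genes tumours 265 and 105 exceeded every other array and tumour 318 did not. It did not hold for every such gene, since Fgf21, described further on, was high in tumour 265 alone of the 3. The wider list of 23 fatty acid oxidation genes had a median of -0.04 in the liver-like tumours, 0.54, -0.44 and 0.03 by tumour, with none above and 2 below all controls in all 3, against 9.60% and 11.6% of all genes.

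**Figure D4:**
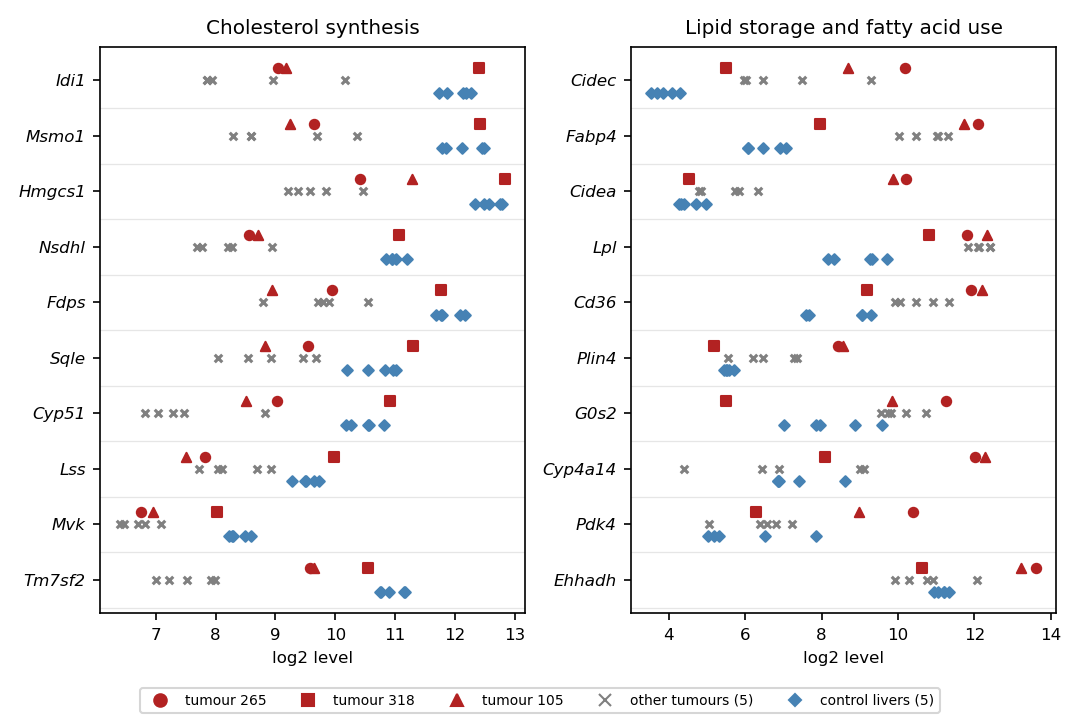
Log2 level (x axis) of 10 cholesterol synthesis genes (left) and 10 genes of lipid storage and fatty acid use (right), chosen after their values were seen; red symbols are tumours 265, 318 and 105, grey crosses the other 5 tumours and blue diamonds the 5 controls. Tumour 318 (square) lies near the controls in most rows of both panels, as for Idi1 with 12.40 and Cidea with 4.54, apart from tumours 265 and 105.

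Cytochrome P450 genes were near the controls by their median in the liver-like tumours, with a share of members well below them in tumours 265 and 105. The median difference of 32 genes was -0.23 in them and -2.13 in the other tumours; 6 had all 3 liver-like tumours below all controls, each by 2-fold, and none had all above, against 11.6%, 1.28% and 9.60% of all genes. At least 2-fold below all controls were 10 members in tumour 265, 1 in tumour 318 and 7 in tumour 105, against 3.16%, 1.44% and 2.68% of all genes. Cyp2e1, which oxidises ethanol and other small molecules, had 13.40, 14.10 and 13.89 in the liver-like tumours, 6.91, 8.79, 12.45, 7.50 and 12.76 in the other tumours and 13.98, 14.17, 14.07, 14.17 and 14.03 in the controls. Cyp3a11, a main drug-metabolising enzyme of mouse liver, had 14.21, 14.11 and 14.39 in the liver-like tumours, 10.31 to 12.79 in the other tumours and 13.91 to 14.20 in the controls. For both genes the liver-like tumours stood at or near the controls, although the test of all 8 tumours did not pass (adjusted p 0.162 and 0.205, limma). Cyp1a2 was low in tumour 265 alone of the 3, with 7.84, 13.13 and 12.70 in the liver-like tumours, 5.30 to 8.93 in the other tumours and 11.65 to 12.66 in the controls. Cyp2u1, a P450 of long-chain fatty acids, was low in every tumour, with 5.74, 5.90 and 5.30 in the liver-like tumours, 4.97 to 5.71 in the other tumours and 7.55 to 8.44 in the controls (adjusted p 4.54e-05, limma).

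Bile acid genes were low in part, and less so than in the other tumours by the list's median. The median over 29 genes was -0.39 in the liver-like tumours and -1.46 in the others; 10 members had all 3 liver-like tumours below all controls and 2 had all above, against 11.6% and 9.60% of all genes. Slc10a1, the main uptake transporter of bile salts, had 11.81, 11.52 and 10.75 in the liver-like tumours, 5.87, 5.34, 7.97, 8.08 and 8.13 in the other tumours and 12.30, 12.44, 12.32, 12.25 and 12.24 in the controls (adjusted p 0.0421, limma). It was slightly low in the liver-like tumours and far lower in the rest. Cyp8b1, the sterol 12-alpha-hydroxylase, had 8.09, 9.48 and 5.50 in the liver-like tumours, 6.49 to 9.94 in the other tumours and 9.75 to 11.28 in the controls, with an adjusted p of 0.0342 that held in 6 of 13 fits without 1 array. Cyp7b1, the oxysterol hydroxylase, had 10.32, 12.25 and 10.28 in the liver-like tumours, 11.13 to 12.27 in the other tumours and 13.02 to 13.47 in the controls. Abcc4, an export pump that rises in cholestasis, had 7.83, 6.49 and 11.01 in the liver-like tumours, 8.53 to 10.16 in the other tumours and 5.51 to 6.05 in the controls (adjusted p 0.00366, limma).

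Complement and coagulation genes, which encode plasma proteins made by hepatocytes, were lower in part. Of 34 measured, 16 had all 3 liver-like tumours below all controls, 5 of them by 2-fold, and none had all above, against 11.6%, 1.28% and 9.60% of all genes. The test of all tumours found 16 that fell and none that rose, against 9.81% and 10.3% of all genes. The median was -0.34 in the liver-like tumours and -0.86 in the others. C8a, a chain of the membrane attack complex, had 9.53, 12.09 and 10.18 in the liver-like tumours, 5.04 to 9.10 in the other tumours and 12.70 to 12.92 in the controls. C6, another component of that complex, had 8.65, 10.68 and 8.95 in the liver-like tumours, 7.33 to 9.03 in the other tumours and 10.79 to 11.41 in the controls. Both were closest to the controls in tumour 318.

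In nitrogen and amino acid metabolism the list's median lay further from the controls in the liver-like tumours than in the others. Of 31 genes 14 had all 3 liver-like tumours below all controls and none had all above, against 11.6% and 9.60% of all genes; the median was -0.60 in them and -0.27 in the others. In the test of all tumours 8 fell and none rose, against 9.81% and 10.3% of all genes. Arg1, the arginase that releases urea, had 13.39, 12.59 and 12.60 in the liver-like tumours, 13.47, 13.90, 13.98, 13.65 and 13.58 in the other tumours and 13.57, 13.43, 13.45, 13.62 and 13.63 in the controls. Asl, argininosuccinate lyase, had 11.87, 11.15 and 11.12 in the liver-like tumours, 12.45 to 13.47 in the other tumours and 11.76 to 12.40 in the controls. Nags, which makes the activator of the first urea cycle enzyme, had 8.18, 8.24 and 8.18 in the liver-like tumours, 8.85 to 9.55 in the other tumours and 8.94 to 9.55 in the controls. Got1, the cytosolic aspartate aminotransferase, had 10.08, 11.34 and 8.78 in the liver-like tumours, 13.07 to 13.77 in the other tumours and 11.16 to 12.02 in the controls, so that in tumours 265 and 105 it was below the controls and in the other tumours above them.

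Respiratory chain genes were lower by small amounts in tumours 265 and 318. Of 37 measured, 13 had all 3 liver-like tumours below all controls and none had all above, against 11.6% and 9.60% of all genes, with none 2-fold. The median was -0.23 in the liver-like tumours (-0.33, -0.38 and -0.02 by tumour), 0.15 in the others and -0.08 to 0.10 among the controls, so that tumour 105 lay within the controls. The test of all tumours found 1 gene that rose and 1 that fell, against 10.3% and 9.81% of all genes. Uqcrq, a subunit of complex III, had 11.21, 11.59 and 11.03 in the liver-like tumours, 11.25 to 11.91 in the other tumours and 11.80 to 12.20 in the controls.

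**Figure D5:**
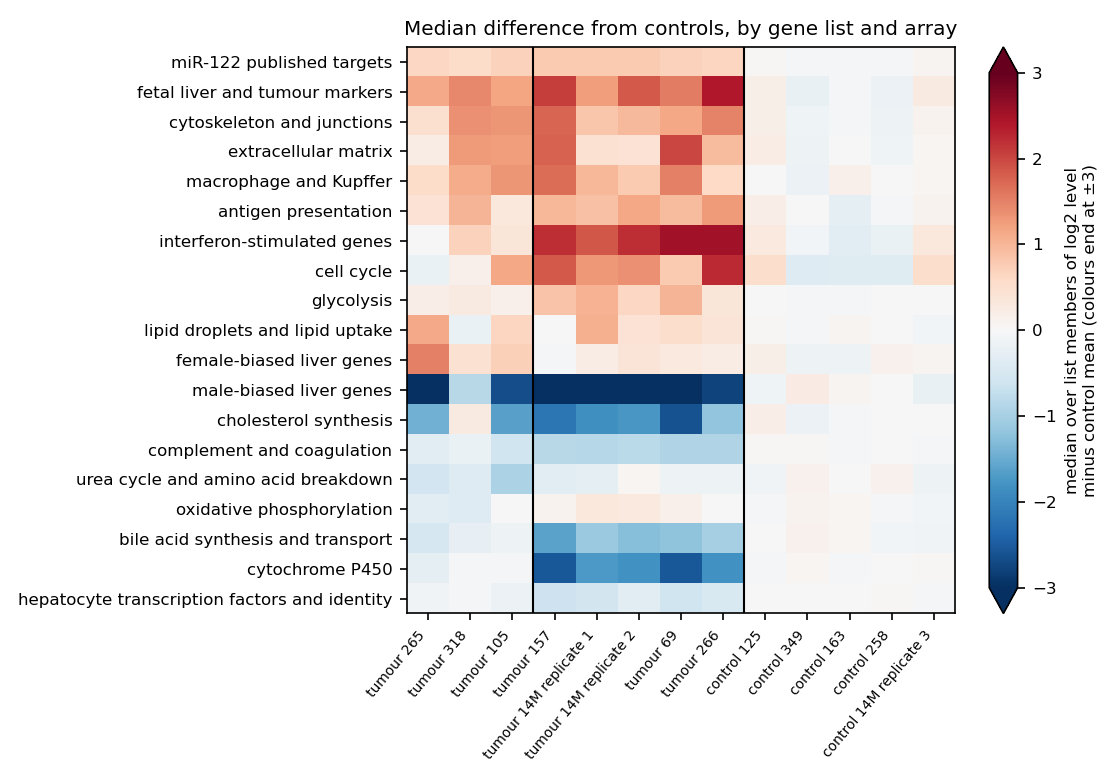
Median over the measured members of each gene list (rows) of the log2 level minus the control mean, for each of the 13 arrays (columns; liver-like tumours left of the first line, other tumours in the middle, controls right); red is higher and blue lower, and colours end at 3 in either direction. Male-biased genes are low in all 3 liver-like tumours (-3.00, -0.84 and -2.66), and the cytochrome P450 median is -0.23 in them and -2.13 in the other tumours.

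Most macrophage genes were higher in the liver-like tumours. Of 29 measured, 17 had all 3 liver-like tumours above all controls, 17 by 2-fold in the mean, and 2 had all below. The shares of all genes were 9.60%, 3.47% and 11.6%. At least 2-fold above all controls were 6, 15 and 17 members in tumours 265, 318 and 105, against 5.49%, 5.38% and 6.34% of all genes. Below them likewise were 4, 1 and 2, against 3.16%, 1.44% and 2.68%. In the test of all tumours 16 macrophage genes rose and 3 fell, against 10.3% and 9.81% of all genes. In bulk tissue, more or fewer cells of a type and more or less RNA per cell cannot be told apart. Cd14, the co-receptor for bacterial lipopolysaccharide, had 11.12, 10.35 and 10.26 in the liver-like tumours, 13.46, 11.78, 11.34, 10.99 and 11.98 in the other tumours and 8.17, 6.14, 6.48, 6.64 and 8.32 in the controls (adjusted p 0.000938, limma). Ccr2, the receptor that draws monocytes into tissue, had 7.03, 8.69 and 8.37 in the liver-like tumours, 6.86 to 8.72 in the other tumours and 5.17 to 6.11 in the controls. Cx3cr1, another monocyte chemokine receptor, had 6.30, 7.85 and 7.16 in the liver-like tumours, 5.81 to 7.94 in the other tumours and 5.13 to 5.23 in the controls. In both receptors tumour 265 was the lowest of the 3.

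Markers of Kupffer cells, the resident macrophages of liver, did not share 1 arrangement, and those named here were chosen after their values were seen. Clec4f, a lectin that marks Kupffer cells in mice, had 8.74, 9.53 and 9.18 in the liver-like tumours, 5.65, 5.54, 7.27, 5.19 and 6.88 in the other tumours and 9.49, 9.53, 9.73, 9.54 and 9.52 in the controls. Vsig4, a complement receptor, had 9.11, 10.07 and 9.51 in the liver-like tumours, 5.83, 5.53, 7.18, 3.53 and 6.48 in the other tumours and 9.21, 9.05, 9.64, 9.17 and 9.34 in the controls. The liver-like tumours were above the other tumours in both genes. Clec4f was below all controls in each liver-like tumour except tumour 318, and Vsig4 was above all controls in tumour 318 only. Timd4, a receptor for dying cells, was low in tumour 265 alone of the 3, with 3.77, 7.16 and 6.23 in the liver-like tumours, 3.28 to 4.24 in the other tumours and 6.07 to 6.59 in the controls. Cd163, the scavenger receptor for haemoglobin, was low in every tumour, with 5.21, 4.92 and 3.36 in the liver-like tumours, 2.43, 2.50, 3.49, 2.46 and 4.09 in the other tumours and 7.96, 7.51, 7.56, 7.68 and 8.07 in the controls (adjusted p 0.000329, limma). C6, which the list also holds, is made by hepatocytes too.

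Antigen presentation genes were higher, most in tumour 318. Of 18 measured, 10 had all 3 liver-like tumours above all controls and none had all below, against 9.60% and 11.6% of all genes. The test of all tumours found 14 that rose, against 10.3% of all genes. H2-Ab1, a chain of the class II complex, had 9.48, 11.13 and 10.38 in the liver-like tumours, 10.07 to 10.71 in the other tumours and 7.51 to 8.61 in the controls (adjusted p 0.000356, limma). Cd74, the class II invariant chain, had 10.06, 12.34 and 11.55 in the liver-like tumours, 11.00 to 11.57 in the other tumours and 8.97 to 9.39 in the controls. Ptprc, the leukocyte common antigen, had 8.75, 10.44 and 9.88 in the liver-like tumours, 9.34 to 10.74 in the other tumours and 7.55 to 8.43 in the controls. Of lymphocyte genes, 3 of 23 had all 3 above all controls and none all below, against 9.60% and 11.6% of all genes. S100a9, a calcium-binding protein of neutrophils, had 8.14, 8.92 and 8.31 in the liver-like tumours, 7.69 to 10.57 in the other tumours and 4.97 to 6.98 in the controls (adjusted p 0.00101, limma).

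Interferon-stimulated genes were high in the liver-like tumours only in part. Of 26 measured, 7 had all 3 above all controls, each by 2-fold, and none had all below, against 9.60%, 3.47% and 11.6% of all genes. The median was 0.41 in the liver-like tumours (0.01, 0.70 and 0.36 by tumour), 2.24 in the others and at most 0.32 in any control. At least 2-fold above all controls were 5, 12 and 9 members in tumours 265, 318 and 105, against 5.49%, 5.38% and 6.34% of all genes. Mx1, an antiviral GTPase, had 3.99, 4.63 and 4.48 in the liver-like tumours, 8.05, 7.26, 7.42, 8.58 and 8.57 in the other tumours and 4.09, 3.62, 3.70, 3.81 and 3.75 in the controls. Oasl1, of the oligoadenylate synthetase family, had 7.05, 8.37 and 7.35 in the liver-like tumours, 10.43 to 11.07 in the other tumours and 6.88 to 7.59 in the controls. In both genes every other tumour stood far above the liver-like ones. Usp18, which limits interferon signalling, was an exception, with 10.04, 8.19 and 9.25 in the liver-like tumours, 10.26 to 11.04 in the other tumours and 6.02 to 7.75 in the controls (adjusted p 0.00164, limma).

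Matrix genes were higher as a list in tumours 318 and 105, and in tumour 265 their median was within the range of the controls. Of 42 matrix genes 15 had all 3 liver-like tumours above all controls, 12 by 2-fold, and 1, Lama3, had all below. The shares of all genes were 9.60%, 3.47% and 11.6%. In the test of all tumours 19 matrix genes rose and 1 fell, against 10.3% and 9.81% of all genes. The median difference was 0.22, 1.28 and 1.25 by tumour and -0.14 to 0.22 among the controls. Col1a1, a chain of the main collagen of scars, had 6.59, 8.26 and 9.11 in the liver-like tumours, 10.99, 6.72, 7.40, 10.42 and 8.85 in the other tumours and 5.94, 4.92, 4.96, 5.16 and 6.07 in the controls (adjusted p 0.0167, limma). Col4a1, a basement membrane collagen, had 9.50, 10.21 and 9.79 in the liver-like tumours, 10.03 to 11.73 in the other tumours and 7.35 to 7.81 in the controls. Tgfb1, the growth factor that drives matrix deposition, had 7.19, 7.89 and 7.61 in the liver-like tumours, 7.08 to 7.85 in the other tumours and 6.21 to 6.67 in the controls (adjusted p 0.00145, limma).

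Of 30 cytoskeleton and junction genes 16 had all 3 liver-like tumours above all controls and none had all below, against 9.60% and 11.6% of all genes. In the test of all tumours 17 of them rose and 1 fell, against 10.3% and 9.81% of all genes. Anxa2, a calcium-dependent membrane and actin binding protein, had 10.88, 10.82 and 11.70 in the liver-like tumours, 10.64 to 11.77 in the other tumours and 7.59 to 8.32 in the controls (adjusted p 2.38e-05, limma), with a difference of 3.07 that was 1.29 over the mean of its probe sets. Vim, the intermediate filament of mesenchymal cells, had 8.92, 10.06 and 9.83 in the liver-like tumours, 9.56 to 11.16 in the other tumours and 7.44 to 8.55 in the controls. Markers of stellate cells and myofibroblasts had mean levels of 7.27 to 8.34 in the liver-like tumours, 7.43 to 9.15 in the other tumours and 6.67 to 7.58 in the controls, with 3 of 21 genes of a wider stellate list above all controls in all 3, against 9.60% of all genes. Their part in the matrix result was not tested.

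Of 28 endothelial genes 5 were above all controls in all 3 liver-like tumours and 1 below, against 9.60% and 11.6% of all genes. Esm1, a secreted proteoglycan of growing vessels, had 7.49, 5.14 and 6.67 in the liver-like tumours, 7.74 to 10.05 in the other tumours and 3.10 to 3.83 in the controls (adjusted p 0.00202, limma), higher in tumour 265 than in the other liver-like tumours. Cd34, a glycoprotein of capillary endothelium, had 5.54, 6.84 and 6.51 in the liver-like tumours, 7.11 to 9.10 in the other tumours and 4.42 to 5.21 in the controls. Lyve1, a hyaluronan receptor of sinusoidal and lymphatic endothelium, had 8.56, 6.80 and 7.74 in the liver-like tumours, 5.63 to 8.99 in the other tumours and 4.65 to 5.57 in the controls.

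Cell cycle genes were clearly higher in tumour 105 and not in tumours 265 and 318. The median over 48 genes was -0.19, 0.15 and 1.15 in tumours 265, 318 and 105 and 1.47 in the other tumours; among the controls it was 0.53 and 0.54 in the nearly identical pair and at most -0.36 in the rest. At least 2-fold above all controls were 4, 4 and 25 members in the 3 tumours, against 5.49%, 5.38% and 6.34% of all genes. Mki67, the proliferation marker, had 4.61, 6.00 and 7.88 in the liver-like tumours, 8.50, 7.13, 8.09, 6.74 and 9.05 in the other tumours and 5.56, 4.69, 4.60, 4.35 and 5.73 in the controls. Ccnb2, a mitotic cyclin, had 3.95, 5.10 and 8.16 in the liver-like tumours, 6.54 to 8.17 in the other tumours and 3.80 to 6.03 in the controls, and of the liver-like tumours tumour 105 alone exceeded the controls.

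Ccnd1, the cyclin of entry into the cycle, did not follow these genes. It had 10.72, 9.96 and 11.01 in the liver-like tumours, 8.77, 7.15, 8.36, 8.84 and 8.83 in the other tumours and 8.32, 7.02, 7.07, 7.97 and 8.19 in the controls, above every other array in all 3 liver-like tumours. Cdkn1a, the cyclin-dependent kinase inhibitor p21, had 9.20, 8.35 and 8.59 in the liver-like tumours, 8.53 to 9.61 in the other tumours and 5.65 to 7.74 in the controls (adjusted p 0.00563, limma). Cdkn2c, the inhibitor p18, had 7.73, 7.95 and 8.06 in the liver-like tumours, 7.74 to 8.19 in the other tumours and 5.70 to 7.07 in the controls (adjusted p 0.00186, limma). Both inhibitors were above all controls in all 3 liver-like tumours.

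Ccnd1 belonged to a small set of genes in which the liver-like tumours stood outside both other groups. In 191 genes (1.05%) all 3 were above all 10 other arrays and in 320 (1.76%) all 3 were below; those named here were chosen for the width of the gap, and no test bears on them. Rdh9, a retinol dehydrogenase, had 12.75, 11.71 and 12.01 in the liver-like tumours, 9.68, 10.15, 9.44, 8.35 and 10.27 in the other tumours and 9.77, 8.27, 9.25, 9.22 and 9.66 in the controls. Slc5a1, a sodium-coupled glucose transporter, had 6.82, 6.10 and 5.93 in the liver-like tumours, 4.42 to 4.82 in the other tumours and 4.15 to 4.43 in the controls. Emilin1, an elastic fibre glycoprotein, had 9.27, 8.76 and 9.18 in the liver-like tumours, 6.78 to 7.82 in the other tumours and 6.81 to 7.20 in the controls. Below all other arrays was Cyp39a1, a hydroxylase of oxysterols, with 6.22, 4.68 and 4.21 in the liver-like tumours, 8.74, 9.56, 10.06, 8.45 and 8.79 in the other tumours and 7.20, 7.79, 8.88, 7.27 and 7.13 in the controls.

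Slc3a1, a subunit of the transporter of cystine and basic amino acids, had 8.27, 7.78 and 8.04 in the liver-like tumours, 9.96 to 11.14 in the other tumours and 9.56 to 10.15 in the controls. Hes6, a transcriptional regulator of the Hes family, had 7.30, 8.54 and 7.83 in the liver-like tumours, 9.46 to 10.34 in the other tumours and 9.43 to 9.88 in the controls. Scara5, a ferritin receptor, had 6.79, 7.28 and 6.77 in the liver-like tumours, 8.66 to 9.97 in the other tumours and 7.99 to 8.88 in the controls. In these genes the other tumours were like the controls or above them, so the comparison of all tumours with controls did not pass for any (adjusted p 0.67, 0.478 and 0.767, limma).

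The opposite arrangement, a difference in the test of all tumours with the 3 liver-like tumours inside the range of the controls, was seen as well. Fstl3, a secreted inhibitor of activins, had 5.40, 5.42 and 5.38 in the liver-like tumours, 6.85 to 8.32 in the other tumours and 4.72, 4.66, 5.10, 5.24 and 5.49 in the controls (adjusted p 0.0375, limma, held in 5 of 13 fits without 1 array). Robo1, an axon guidance receptor, had 5.81, 6.90 and 6.57 in the liver-like tumours, 6.81 to 8.36 in the other tumours and 4.95 to 6.98 in the controls. Fcgr4, an antibody receptor of myeloid cells, had 7.01, 7.49 and 7.26 in the liver-like tumours, 7.65 to 9.49 in the other tumours and 6.34 to 7.63 in the controls. Nr1d1, the clock repressor REV-ERB alpha, had 7.25, 7.50 and 7.48 in the liver-like tumours, 5.89 to 6.79 in the other tumours and 6.79 to 8.54 in the controls. Clock genes depend on the hour of sampling, which the labels do not give. For Robo1, Fcgr4 and Nr1d1 the adjusted p was 0.0347, 0.0478 and 0.0331 (limma). It held in 7, 5 and 7 of 13 fits without 1 array.

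Single tumours had genes of their own, chosen as those farthest outside the controls while the other 2 liver-like tumours lay inside. In tumour 265 these included Fgf21, the fasting hormone of liver, with 10.36, 6.06 and 6.24 in the liver-like tumours, 6.13 to 9.53 in the other tumours and 5.24 to 6.50 in the controls. Cyp2d9, a male-biased P450, was low in that tumour alone of the 3, with 10.39, 13.15 and 12.96 in the liver-like tumours, 11.18 to 12.44 in the other tumours and 12.93 to 13.40 in the controls. In tumour 318 Cxcl10, a chemokine induced by interferon gamma, was high, with 8.18, 10.92 and 7.89 in the liver-like tumours, 10.01 to 10.93 in the other tumours and 4.71 to 8.19 in the controls. Cyp2d12, a P450, had 5.48, 9.53 and 5.69 in the liver-like tumours, 4.18 to 5.23 in the other tumours and 5.33 to 6.86 in the controls, high in tumour 318 alone of all 13 arrays. Plin5, a perilipin of oxidative tissues, was low in tumour 318, with 9.37, 7.12 and 8.74 in the liver-like tumours, 8.72 to 10.70 in the other tumours and 8.29 to 9.41 in the controls.

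In tumour 105 the genes chosen this way were in part mitotic. Pbk, a mitotic kinase, had 4.01, 4.74 and 7.67 in the liver-like tumours and 3.96 to 5.32 in the controls. The other tumours, with 6.19 to 8.91, were above the controls as well. Tpm2, a tropomyosin of muscle and myofibroblasts, had 7.77, 7.50 and 10.33 in the liver-like tumours, 6.68 to 7.50 in the other tumours and 6.76 to 8.11 in the controls, highest of all arrays in tumour 105. Klb, the co-receptor for FGF21 and FGF15, was low in tumour 105, with 8.60, 8.26 and 6.93 in the liver-like tumours, 8.26 to 9.07 in the other tumours and 8.10 to 8.76 in the controls. Slc22a7, an organic anion transporter of hepatocytes, had 7.33, 8.97 and 5.80 in the liver-like tumours, 4.63 to 5.58 in the other tumours and 7.21 to 10.22 in the controls, with tumour 105 near the other tumours.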

How the data were processed

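RNA of 8 tumours and 5 control livers was measured on Affymetrix arrays from 6 ug of total RNA, per the labels' protocols. The deposited values are log2 levels that the authors obtained by robust multi-array analysis (RMA) in Partek's Genomics Suite, per the submitters' processing notes; the sources used here do not give its version or settings. RMA normalises between arrays, so levels are relative within an array, and very high levels are compressed. The number of arrays limits the precision.

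Of 45101 probe sets, 34945 name 1 gene, 932 name several and 9160 none, by the platform annotation, and 64 are array controls. For each of 18193 genes the probe set brightest on average over 13 arrays was used. Tumours were grouped by their labels and fitted in R 4.3.3 with limma 3.58.1 (eBayes on lmFit, both ages weighted equally, Benjamini-Hochberg adjustment over all genes, threshold 0.05). The procedure was tested on simulated data. The liver-like tumours, chosen by their values, were compared with controls by non-overlap and a 2-fold mean difference, with no test. Python 3.11.15 with pandas 2.3.3 made the tables and matplotlib 3.10.9 the figures.

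The members and all 39 gene lists were chosen with earlier results of these data known. Genes named are the 15 largest differences in each direction that also pass limma's threshold, up to 3 members of each list in each direction, published miR-122 targets, genes outside the controls in 1 tumour, genes outside all other arrays, genes called in all tumours but inside the control range in the 3, and a few markers. Further members of the lists for sex-biased genes, cholesterol, lipids, fatty acids, P450, bile acids, nitrogen metabolism, foetal genes, macrophages and interferon were chosen after their values were seen. So were Asgr1, Apoa1, Tat, Adipoq, Hamp, Eif2s3y and Xist. Promoters are RefSeq sequences of GRCm38.p6. Alternatives covered the probe set rule, normalisation, level filter, fold, spread estimate and each array left out.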

Additional observations from a re-analysis of the deposited data

Results flagged for a closer look

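Examined were 362 sets of 5 arrays, the controls or the 14-month tumours, for 142 of the genes named in the text and 39 list medians. In each set the highest or lowest array was set against the others by the share of the whole range that its gap to the nearest array took up. An array stood apart in 32 sets, 14 among the controls and 18 among the 14-month tumours. Chance alone does so in about 1 set in 20 where values had no part in the choice of sets. Many of these genes were named for their values, some because tumour 105 stood outside other arrays, so that rate does not apply here. In 14 of the 32 sets the array was tumour 105, the only liver-like tumour of 14 months, set against tumours chosen as less like liver. It was far above the other 14-month tumours, with the share of the range in parentheses, for Acot3 (0.799), Cidea (0.794), Cyp2b13 (0.776), Gpc3 (0.787), Mup10 (0.766), Slc5a1 (0.759), Tpm2 (0.773) and bile acid synthesis and transport (0.737). It was far below them for Cyp39a1 (0.724), Cyp8b1 (0.729), Got1 (0.861), Oasl1 (0.879), Scara5 (0.722) and periportal zonation (0.736). Got1 had 8.78 in tumour 105 against 13.07 to 13.77 in the other 14-month tumours, and Oasl1 had 7.35 against 10.62 to 11.07. Gpc3 had 5.03 against 4.33 to 4.48, all under the median of all values and not shown to be above background.

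Other 14-month tumours stood apart for Cd34 (tumour 69, highest 0.726), Sult2a2 (tumour 266, highest 0.717), Tbx19 (tumour 69, lowest 0.735) and Vim (tumour 69, highest 0.754). Among the controls, control 125 was the highest for Adipoq (0.722) and the lowest for Mup3 (0.737). Control 14M replicate 3 was the highest for Adam10 (0.972) and the lowest for Cx3cr1 (0.757). Control 163 was the highest for Clec4f (0.780), Fcgr4 (0.823), Moxd1 (0.741) and Ptprc (0.713). Control 258 was the highest for Oasl1 (0.776) and Tmed3 (0.849) and the lowest for Slc22a26 (0.741). Control 349 was the highest for Egfr (0.867) and gluconeogenesis and liver glucose handling (0.831) and the lowest for Igf2 (0.794). The low Igf2 level of control 349 was 5.09 against 6.37 to 6.70 in the other controls, far under every tumour in either case.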

How the results depend on the processing

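No paired analysis was possible because the arrays carry replicate numbers by accession order only. The labels do not say whether any arrays share an animal or batch. The 3 liver-like tumours were the same under all other measures of likeness tried. The total of 3657 genes in the test of all tumours was 6958 over all probe sets, 1759 with only arrays whose titles carry a number, 1443 at an adjusted p under 0.01, 1224 with a 2-fold minimum, 1814 to 4359 with 1 array left out and 1368 without both nearly identical controls, an alternative chosen after seeing the data. The test of a difference between ages gave 0 to 1 genes with 1 array left out, the 1 without control 125. The 631 genes at least 2-fold above the controls in the liver-like tumours were 1129 over probe sets, 1206 at 1.5-fold, 139 at 4-fold and 629 to 877 with 1 array left out. The 233 below were 379 over probe sets, 684 at 1.5-fold, 43 at 4-fold and 225 to 427 with 1 array left out, the highest without tumour 318. Of 158 named genes past the threshold, 79 stayed past it under all alternatives and 93 in all fits without 1 array. Of 2982 differences of named genes recomputed, 139 moved by 1 SD or more, the SD being that of the gene among the 3 liver-like tumours. Leaving out 1 of these tumours cannot move the mean that far, so those alternatives could not count as moved. Genes that scatter widely among the 3 tumours also count as moved less easily. Changes of sign were counted only for genes that were 2-fold and without overlap, and none of these changed sign. Leaving out, averaging or restricting arrays cannot change the sign of such a gene. Only the alternatives of probe set rule and normalisation could have done so. Of 546 list medians, 24 moved by the SD of that median among the 3 tumours or more. Dim probe sets limit what can be said of genes under the array median.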
